A study of Mus musculus with 8 samples.

Results

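The nuclear genes for the subunits of mitochondrial complexes I, III, IV and V were followed in mouse macrophages before and after lipopolysaccharide (LPS). They were taken from the deposited gene counts by symbol, as all symbols that begin with Ndufa, Ndufb, Ndufc, Ndufs, Ndufv, Uqcr, Cox4i, Cox5, Cox6, Cox7, Cox8 or Atp5, without symbols that end in -ps and without the Ndufaf assembly factors. Of 85 such symbols among 43346 genes, 74 averaged at least 1 CPM (counts scaled to the size of a library) over the 8 libraries. Of the 85, 4 are annotated as processed pseudogenes (Ndufa11b, Ndufb4c, Ndufs6b and Cox6c2), all under 1 CPM. The 74 are called members here, and they fall on 19 chromosomes. Complex I had 36 of them, complex III 8, complex IV 14 and complex V, the ATP synthase, 16. Older symbols are used as in the reference list, so Atp5a1 is the ATP synthase alpha subunit.

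Polyadenylated RNA was sequenced from 3 kinds of mouse macrophage, unstimulated (0 h) and after 3 h of LPS, an outer membrane lipid of Gram-negative bacteria. Bone marrow-derived macrophages (BMDM) had 2 libraries in each state. The cell type labelled hMPDM and RAW 264.7 (RAW), a macrophage line made by transformation with a leukaemia virus, had 1 library in each state. The sources used here state neither the LPS dose, the strain and age of the animals nor what hMPDM stands for, and whether the BMDM pairs are separate animals or cultures is not stated, so their p-values measure the spread between these libraries, which may be technical.

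The respiratory chain passes electrons from NADH and succinate to oxygen through complexes I to IV and pumps protons across the inner mitochondrial membrane. The ATP synthase uses the returning protons to make ATP. Complexes I, III, IV and V combine nuclear subunits with a few encoded in mitochondrial DNA, and complex II is nuclear only. Macrophages given LPS are known to turn towards glycolysis over the following hours to a day.

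Macrophage markers were present in all 8 libraries. The lists name cell types only, so they check neither the kind of macrophage nor the LPS label. The 9 macrophage genes checked, such as Csf1r, Cd68 and Lyz2, summed to 15173 to 20558 CPM and none was at 0 in any library. Lists for fibroblasts, T cells, B cells, mast cells, dendritic cells and erythroid cells summed to at most 10.7 CPM, and the neutrophil list to between 4.81 and 63.4 CPM. Library totals ran from 3116434 counts (RAW unstimulated) to 19307312 (BMDM unstimulated 2). Over 15 genes chosen after their values were seen, for being nearly absent from unstimulated hMPDM and present in BMDM, the hMPDM LPS library stood at 10.7% of the BMDM LPS level. The unstimulated library stood at 1.31% of the BMDM level at rest, a value that the choice of genes fixes. Whether these transcripts were induced by LPS or are reads of another library was not tested. In bulk RNA, fewer cells of a type and less RNA per cell cannot be told apart.

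Of the 62 members with a promoter in the reference, 25 hold at least 1 of 3 short motifs known from such genes, and 4 promoters are printed to show them. They are the 250 bases before a RefSeq start of the gene on its own strand, from RefSeq on GRCm38.p6, the same primary assembly as mm10. Capitals mark the motif CCGGAAG of the ETS family, to which GABP belongs, on either strand, or the NRF1 palindrome of GCGCA followed by TGCGC. The third motif, AAGATGGC of YY1 on either strand, is in none of the 4 stretches. Atp5e and Uqcrh are shown for the largest rise of a comparison among members with a mean of at least 10 CPM. That of Atp5e was in BMDM after LPS and that of Uqcrh in unstimulated RAW over BMDM. Cox5a and Atp5b, also named for rises below, hold none of the 3 motifs. Atp5k and Cox6a1 are shown because they hold the NRF1 motif beside an ETS motif. In Atp5k that ETS motif lies past the printed end, after the start.
Atp5e, chr2:174464102-174464351, minus strand: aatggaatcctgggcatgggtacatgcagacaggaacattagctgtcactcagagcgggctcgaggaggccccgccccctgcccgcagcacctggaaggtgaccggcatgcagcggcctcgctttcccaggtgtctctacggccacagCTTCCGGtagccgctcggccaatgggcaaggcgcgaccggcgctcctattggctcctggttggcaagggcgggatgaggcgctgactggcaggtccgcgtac
Uqcrh, chr4:116075071-116075320, minus strand: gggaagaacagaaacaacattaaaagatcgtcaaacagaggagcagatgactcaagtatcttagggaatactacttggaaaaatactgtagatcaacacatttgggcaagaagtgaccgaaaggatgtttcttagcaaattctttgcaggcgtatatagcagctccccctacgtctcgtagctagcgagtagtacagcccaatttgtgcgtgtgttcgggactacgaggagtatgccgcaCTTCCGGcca
Atp5k, chr5:108434400-108434649, minus strand: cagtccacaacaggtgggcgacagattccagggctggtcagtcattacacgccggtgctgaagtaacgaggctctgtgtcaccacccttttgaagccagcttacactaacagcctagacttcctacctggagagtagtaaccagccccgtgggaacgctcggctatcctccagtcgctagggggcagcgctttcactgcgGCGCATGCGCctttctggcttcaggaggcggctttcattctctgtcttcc
Cox6a1, chr5:115348959-115349208, minus strand: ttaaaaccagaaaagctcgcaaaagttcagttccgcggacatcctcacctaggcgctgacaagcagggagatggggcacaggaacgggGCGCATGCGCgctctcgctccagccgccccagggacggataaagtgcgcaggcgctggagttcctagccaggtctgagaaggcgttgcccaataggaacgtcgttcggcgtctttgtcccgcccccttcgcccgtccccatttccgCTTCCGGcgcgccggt

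In windows of 250 bases before to 50 after the start, the ETS motif was in 13 of the 62 (20.97%) and in 9.93% of 27018 genes. These are all genes with a promoter in the reference, expressed here or not, and the share among expressed genes was not counted. The YY1 motif was in 10 (16.1%) and in 3.19% of all genes, and the NRF1 motif in 5 (8.06%) and in 1.07%. A gene with several starts counted when any of its windows held the motif. Atp5j, coupling factor 6 of the ATP synthase stalk, counts for ETS and YY1 through a start inside the gene as annotated for the counts, and the window at its outer start holds none of the motifs. Gabpa, which runs the other way, overlaps 12.7% of the exon length of Atp5j. A match is a run of letters, not a measured binding site.

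The members were well expressed. Their median level was 67.7 CPM, against 28.2 CPM for the median of all 12461 genes that passed the low-count filter, and all 74 members passed it. 23 members were at or above 100 CPM, 43 between 10 and 100 CPM, and 8 under 10 CPM. Of these 8, 5 share at least 10% of their 50-base stretches with other annotated transcripts, many of them processed pseudogenes. Among the other 66 it was 14. Reads of stretches shared with a gene elsewhere cannot be placed with certainty. Some stretches are shared with a gene that overlaps the member, as Tssk6 does Ndufa13, and there the gene rather than the place can be unclear. The beta and alpha subunits of the catalytic F1 head, Atp5b at 1048 CPM and Atp5a1 at 940 CPM, were the most abundant and made up 23.9% to 29.4% of the members' counts in each library. Per kilobase of exon, the highest member of complex IV was Cox6b1 at 391.9 RPKM (CPM per kilobase of exon). The highest of complex V was Atp5a1 at 299.8 RPKM, of complex III Uqcr10 at 138 RPKM and of complex I Ndufa2 at 118 RPKM.

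Just inside the limit of 1 CPM were the ATP synthase c-ring genes Atp5g2 at 1.16 CPM and Atp5g1 at 1.54 CPM, and just outside subunit g, Atp5l, at 0.292 CPM and the lung form of subunit 4, Cox4i2, at 0.275 CPM. Atp5l shares 9.99% of its 50-base stretches with other transcripts, Atp5g1 11.1% and Atp5g2 38.3%, and reads of such stretches cannot be placed with certainty. These shares are over all annotated transcripts of a gene. For Atp5l that is 648 of 6487 stretches, while its counted exons span 511 bases. The shared part of the counted exons can therefore be larger and was not measured. The genes Cox7b2, Cox8b, Cox8c and Ndufa4l2 were at 0 in all libraries. Over the 6 paralogue pairs checked, the minor form gave at most 7.99% of the summed RPKM of a pair. The third c-ring gene, Atp5g3, stood at 74.02 to 147 RPKM across libraries, while Atp5g1 gave at most 0.593% of the sum of both. The exon length used was 4912 bases for Atp5g1 and 2181 for Atp5g3. How far length and shared stretches lower Atp5g1 was not tested. The 13 protein genes of the mitochondrial genome were listed at 0 counts in all 8 libraries, so the nuclear and mitochondrial subunits could not be set against each other here.

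In BMDM the family as a whole shifted a little relative to other transcripts after LPS. A quasi-likelihood test in edgeR, with Benjamini-Hochberg adjustment over all 12461 genes, called 46 of the 74 members higher and 4 lower after 3 h, while 24 were not called at an adjusted p of 0.05. Of all genes tested, 31.7% were called higher and 31.1% lower. The members' median log2 fold change was 0.20 and that of all genes -0.02. In DESeq2 17 were higher and 0 lower, and with the coefficient of variation set at 10% 11 and 1. No member in either direction passed a test against a fold of 1.5, which 12.4% of all genes passed upward and 10.3% downward. At an unadjusted p under 0.05, edgeR had 48 members higher and 4 lower without the fold margin, and DESeq2 27 and 1.

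These directions are relative to the median gene, since the family's sign depends on the scaling. Libraries were scaled by TMM, which gave the LPS libraries of BMDM factors of 0.830 and 0.829 against 1.07 for both unstimulated ones. Scaled by library size alone, the median of all genes moved to -0.38, the members' median to -0.17, and 3 members were called higher and 47 lower, beside 16% and 61.1% of all genes. In either scaling 63 of the 74 members lay above the all-gene median, where 50% of all genes lie, and the members' median lay 0.22 above it. The share of all counts that went to the members was 0.683% and 0.674% in unstimulated BMDM and 0.612% and 0.621% after LPS. With 2 libraries against 2, the smallest exact permutation p is 0.333, so no exact permutation test of this share could pass 0.05.

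**Figure D1:**
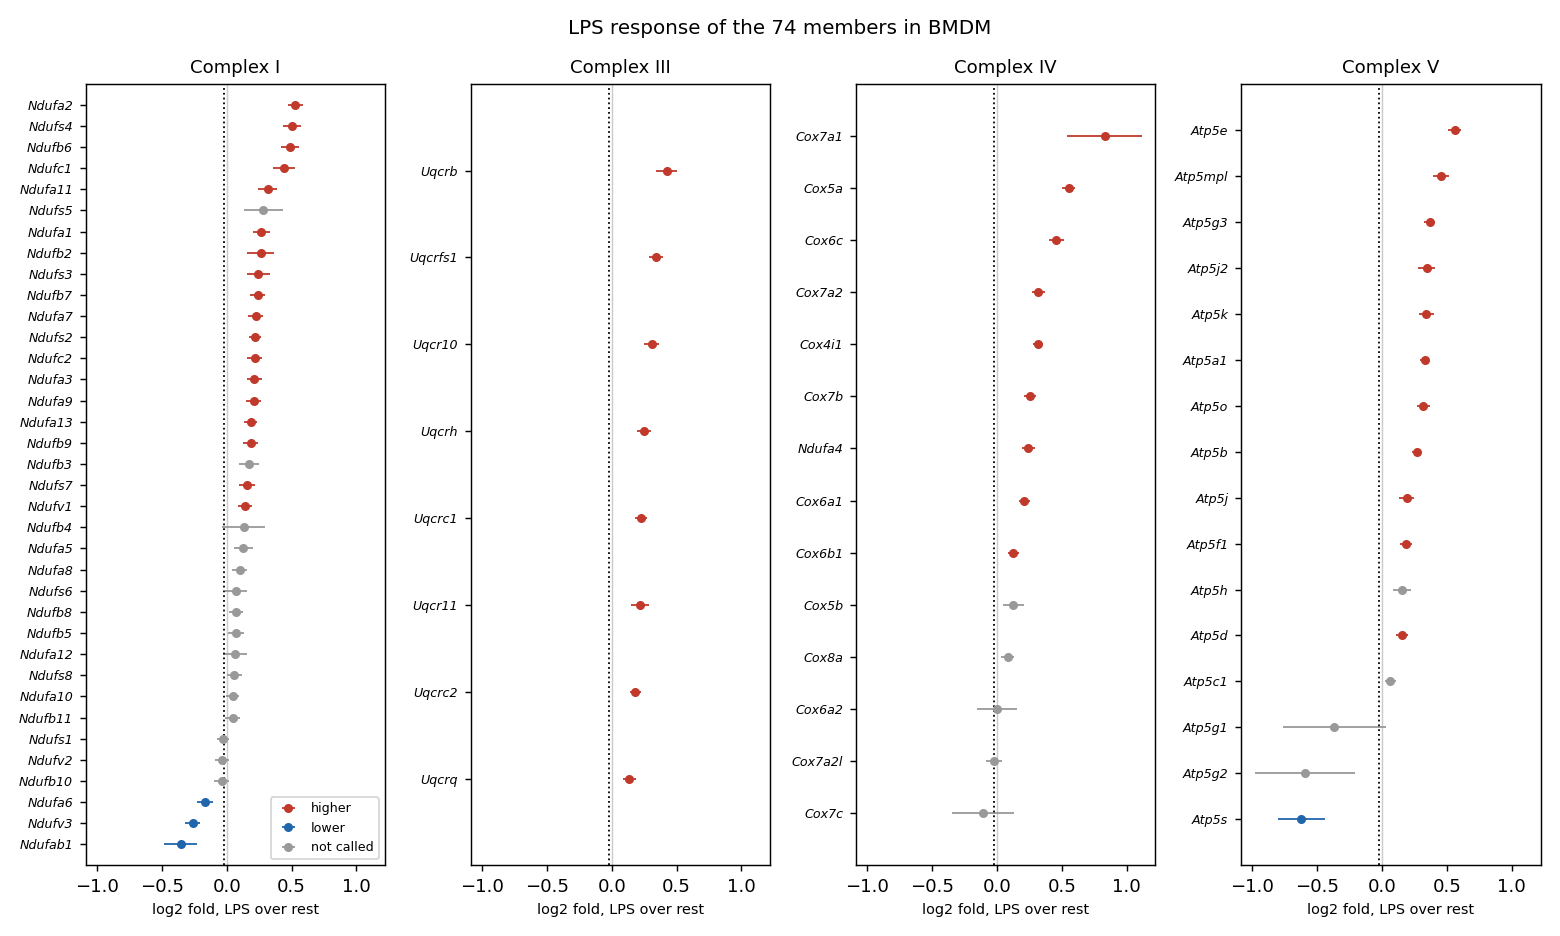
Log2 fold change of each member in BMDM, 3 h LPS over unstimulated, by complex, with TMM scaling. Points are edgeR estimates from 2 libraries per state, bars are 1 SE of the estimate, colours give the call at an adjusted p of 0.05, the dotted line is the median of all genes at -0.02 and the grey line is 0. All 8 complex III members lie to the right, and the few called lower sit in complexes I and V; library-size scaling moves the points left, about as far as it moves the all-gene median, which comes to -0.38.

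All 8 members of complex III, the cytochrome bc1 complex, were called higher (median log2 0.24), as were 9 of 14 in complex IV, cytochrome c oxidase (median 0.23), and 11 of 16 in complex V (median 0.23). Complex I, the NADH dehydrogenase, had 18 of 36 higher and 3 lower (median 0.16). Its 7 core subunits, among them those that hold the flavin and the iron-sulphur clusters, had 4 higher and 3 not called, and 4 of the 5 F1 subunits of the ATP synthase were higher. The differences between complexes were not tested, and by library size 47 members are called lower.

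A measure free of scaling is the share of the members' own counts that falls to each complex. Complex I took 29.3% and 29.9% of them in unstimulated BMDM and 27.9% and 27.7% after LPS. Complex V took 40.3% and 39.5% before and 41.1% and 41.5% after. The libraries of the states did not overlap in either share. hMPDM went from 29.0% to 27.1% for complex I and from 40.7% to 42.0% for complex V. RAW went the other way, from 26.1% to 26.6% for complex I and from 46.1% to 44.9% for complex V. Both cell types have 1 library per state. Without Atp5a1 and Atp5b, which weigh heavily in complex V, complex I went from 38.9% and 39.2% to 37.3% and 37.2% in BMDM, and complex V from 20.8% and 20.6% to 21.3% and 21.4%.

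**Figure D2:**
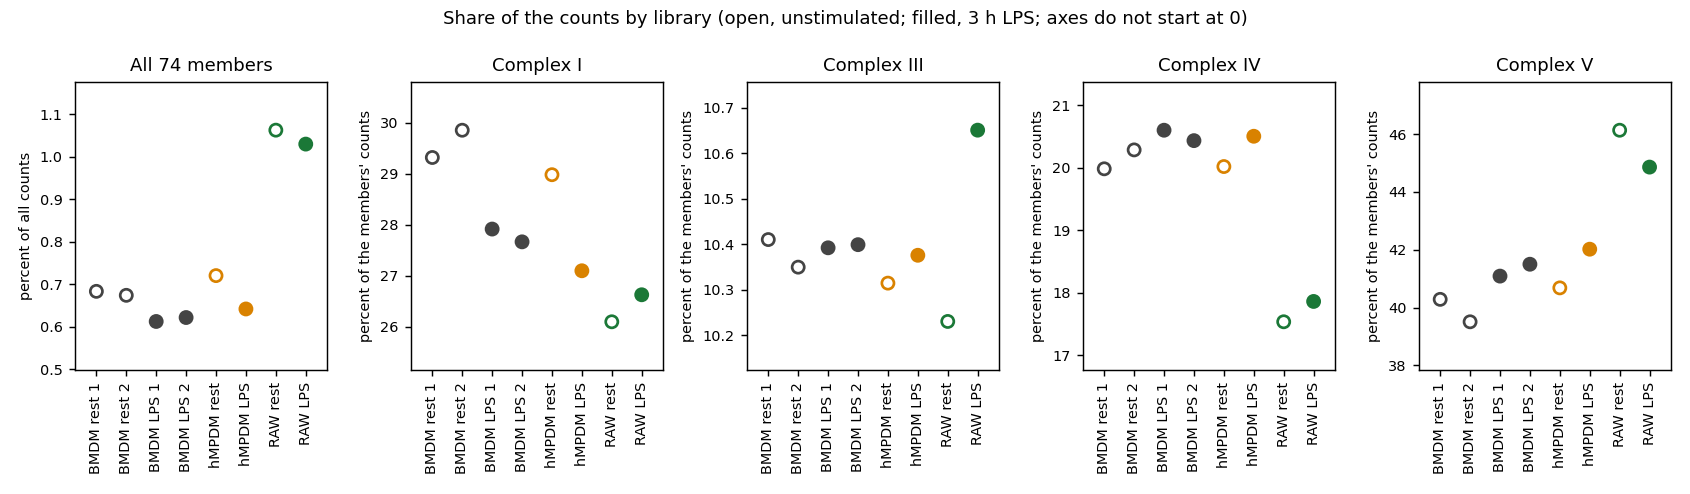
Percent of all counts that fell to the 74 members (left) and percent of the members' counts that fell to each complex, for each of the 8 libraries. Open points are unstimulated and filled points are 3 h LPS, the axes do not start at 0, and each point is 1 library; complex I falls from above 29.0% to below 28.0% in BMDM, and complex V is highest in the RAW libraries at 46.1% and 44.9%.

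Atp5e, Cox5a and Ndufa2 were called higher in BMDM after LPS with the settings used here and under each of the 11 alternatives, library-size scaling included. Atp5e encodes the epsilon subunit, a small part of the F1 central stalk, and lies on mm10 chromosome 2 at 174461072 to 174464105. Its level, as TMM-scaled CPM here and for the genes that follow, was 61.5 and 61.4 before and 90.6 and 90.6 after LPS, so that the states were far apart and the replicates almost equal. Its log2 fold change was 0.56 (SE 0.05, adjusted p = 1.47e-10 in edgeR), and 0.19 by library size. Atp5e also stood at 71.4 and then 88.8 in hMPDM, and at 64.3 and then 89.6 in RAW.

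Cox5a, a subunit on the matrix side of cytochrome c oxidase, went from 80.1 and 81.2 to 122 and 116. Its log2 fold change was 0.55 (SE 0.05, adjusted p = 3.93e-11 in edgeR), and 0.19 by library size. Its exons (chromosome 9, 57521232 to 57532424) overlap the gene Gm26631 on the opposite strand over 38.7% of their length, and the sources used here do not say whether the counting used strand. Its partner subunit Cox5b stood at 25.8 and 28.6 before and 30.5 and 29.3 after, with a log2 fold change of 0.13 that was not called (adjusted p = 0.183 in edgeR). Ndufa2, an accessory subunit of the NADH-oxidising arm, went from 60.4 and 56.6 to 79.8 and 87.1. Its log2 fold change was 0.53 (SE 0.06, adjusted p = 3.03e-09 in edgeR), and 0.16 by library size.

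Ndufs4, an accessory subunit of the same arm whose loss causes Leigh syndrome in humans, had 34.5 and 31.6 before and 45.3 and 47.5 after. Its log2 fold change of 0.50 (SE 0.07, adjusted p = 3.38e-07 in edgeR) was no longer called by library size, at 0.14. The muscle form Cox7a1 had the highest log2 fold change of any member, 0.83 (SE 0.29, adjusted p = 0.0133 in edgeR), from low levels of 2.09 and 1.5 before and 1.96 and 3.79 after. The states overlap, and without BMDM LPS replicate 2 the change was 0.15 (adjusted p = 0.799). Its ubiquitous form Cox7a2 went from 101 and 94.4 to 119 and 123.

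The 4 members called lower in BMDM were Atp5s, Ndufab1, Ndufv3 and Ndufa6. Atp5s, or factor B, an ATP synthase-associated protein rather than a fixed subunit, fell from 5.91 and 5.76 to 3.93 and 3.71 (log2 -0.62, SE 0.18, adjusted p = 0.00435 in edgeR). Ndufab1 is the mitochondrial acyl carrier protein, which serves both complex I and fatty acid synthesis in the matrix. It fell from 11.7 and 13.5 to 8.91 and 10.4 (log2 -0.36, SE 0.13, adjusted p = 0.0158 in edgeR). Ndufv3, an accessory subunit of the flavin-containing module, fell from 77.3 and 78.6 to 62.8 and 66.4 (log2 -0.26, SE 0.06, adjusted p = 1.47e-04 in edgeR). Ndufa6 fell by 0.17 on the log2 scale. The states of each do not overlap. DESeq2 called none of the 4 lower, and without BMDM LPS replicate 1 or BMDM unstimulated replicate 2 the calls of Ndufab1 and Ndufa6 were lost, while without BMDM LPS replicate 2 those of Atp5s and Ndufa6 were.

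Values for the rest of the pathway carry TMM scaling, under which 31.7% of all genes were called higher and 31.1% lower. Library-size scaling, with 16% and 61.1%, moves the all-gene median by -0.36 and turns the sign of Sdhc (-0.11) and Cyc1 (-0.03). Of the 4 complex II genes, 3 were called higher and 0 lower in BMDM after LPS, and 0 and 4 by library size, with the membrane anchor Sdhc highest at a log2 fold change of 0.26. Cyc1, the cytochrome c1 subunit of complex III that the symbol rule leaves out, rose with a log2 fold change of 0.34. Of 19 genes for electron carriers and inner membrane exchange, 9 were higher and 3 lower, and by library size 2 and 11. The largest rises were Coq8a, a kinase-like protein of ubiquinone synthesis, at log2 1.04 and cytochrome c (Cycs) at 0.97, and Coq9 fell by 0.19. Of 46 assembly factors, 9 were higher and 13 lower, and by library size 2 and 29, with Cox18 up at 1.24 and the complex I factor Tmem126b down at -0.83. The assembly factors' median log2 fold change was -0.0023, beside 0.20 for the members.

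Of 19 genes listed as regulators, 10 were called higher and 5 lower, and by library size 5 and 9. The 10 include AA467197, a paralogue of Ndufa4 described next. The ETS factor subunits Gabpa and Gabpb1 rose with log2 fold changes of 0.47 and 0.55, the orphan receptor Esrra with 0.73 and Hif1a with 1.04, while by library size Gabpa stood at 0.10 and was not called. For Yy1 and Nrf1, the factors of the other motifs, library size gave -0.51 and -0.18, beside -0.38 for the median of all genes. It gave -1.84 for Ppard and -1.02 for Pprc1. All of Yy1, Nrf1, Ppard and Pprc1 were called lower by it, as were 61.1% of all genes. Nrf1 lay above that all-gene median, and Yy1, Ppard and Pprc1 lay below it. On the same scaling Gabpb1 stood at 0.18, Esrra at 0.37 and Hif1a at 0.68. With TMM scaling, Pparg fell by 1.51 and the mitochondrial transcription factor Tfb1m by 0.83. The inhibitor of the ATP synthase, Atpif1, changed by -0.07 and was not called. Of the 13 members with an ETS motif, 10 were called higher in BMDM and 0 lower, with a median log2 fold change of 0.22. The 10 with a YY1 motif had 8 higher and 0 lower (median 0.20), and the 5 with an NRF1 motif 4 and 0 (median 0.22). The 37 with a promoter and none of the 3 motifs had 17 higher and 4 lower (median 0.14). Beside these, 31.7% of all genes tested were called higher and 31.1% lower, and of the 74 members 46 and 4. A member can count under more than 1 motif, and calls among all genes with a motif were not counted. The difference between members with and without a motif was not tested, and by library size 3 members in all were called higher.

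Complex IV contains Ndufa4, long assigned to complex I, and a paralogue can take its place. That paralogue is NMES1 (C15orf48 in humans), the gene AA467197 in the mouse list, which is known to be induced in inflamed macrophages. Per kilobase, AA467197 stood at 5.20 and 4.48 RPKM in unstimulated BMDM and at 40.7 and 34.6 RPKM after LPS. Its log2 fold change was 3.31 (SE 0.10, adjusted p = 3.76e-22 in edgeR). Ndufa4 itself stood at 188 and 188 RPKM before and 176 and 171 RPKM after, which is a log2 fold change of 0.24 with TMM scaling and -0.12 by library size. The paralogue's transcript was therefore 2.76% and 2.38% of that of Ndufa4 before and 23.2% and 20.3% after LPS.

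The other macrophages differed in this pair. In hMPDM, the paralogue was 0.963% of Ndufa4 unstimulated and 6.26% after LPS, from 39 and 75 counts. That LPS library stood at 10.7% of the BMDM LPS level over the 15 genes described above. Whether part of the 75 counts has the same origin was not tested. In RAW, it had 2 counts in each library, or 0.192% and 0.128% of Ndufa4, and Ndufa4 itself went from 277 to 317 RPKM. Unstimulated, AA467197 was lower than in BMDM in hMPDM (log2 -1.20) and stood in RAW at 0.111 of the BMDM level by library size (95% exact interval 0.0134 to 0.407), which rests on those 2 counts.

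**Figure D3:**
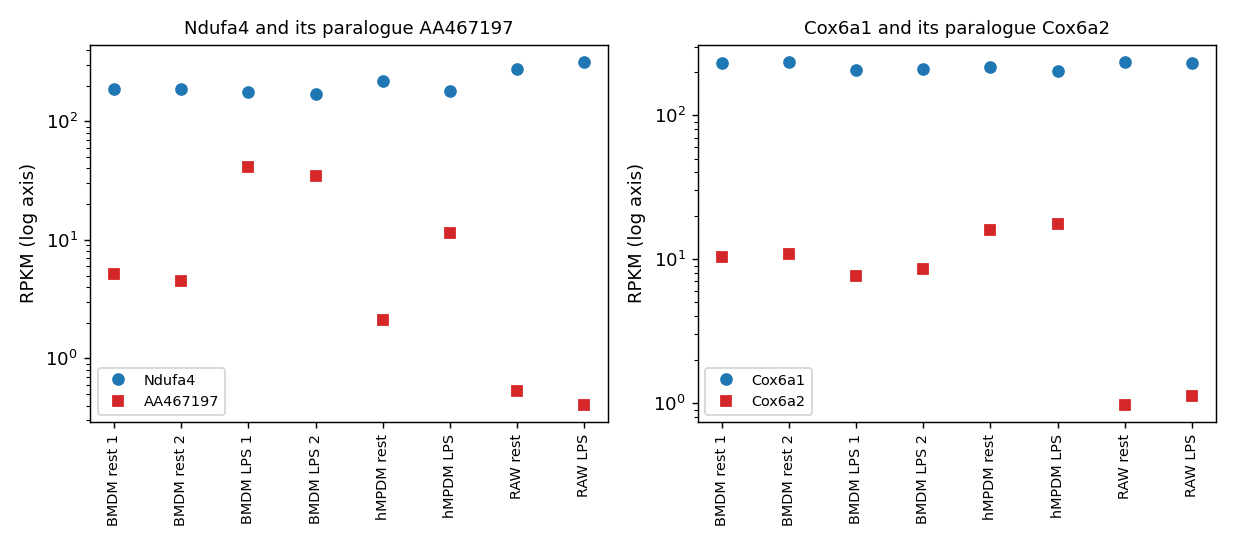
Level in RPKM on a log axis of Ndufa4 and its paralogue AA467197 (left) and of Cox6a1 and its paralogue Cox6a2 (right) in each of the 8 libraries; each point is 1 library. AA467197 is at 40.7 and 34.6 RPKM in the BMDM LPS libraries and under 1 RPKM in RAW, and Cox6a2 is near or under 1.12 RPKM in RAW and between 7.62 and 17.7 RPKM elsewhere.

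The LPS responses of hMPDM and RAW compare 1 library with 1 library and have no test. In hMPDM the members' median log2 ratio was 0.19, against -0.01 for all genes, and 58 of 74 members lay above the all-gene median, where 50% of genes lie. In RAW the members' median was 0.09, against 0 for all genes, and 54 lay above the all-gene median, beside 47.8% of all genes. A size rule asked for a 1.5-fold ratio with at least 10 CPM in the higher library. In hMPDM it took 1 member upward and 1 downward, and 11.7% and 10.8% of all genes. In RAW it also took 1 and 1, and 4.4% and 3.51% of all genes, and between the BMDM replicates of a state it took none of the members and at most 0.0482% of genes in a direction. Between those replicates 39 members (unstimulated) and 37 members (LPS) lay above the all-gene median, beside 49.8% and 49.6% of all genes.

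The hMPDM members ranked much as in BMDM. Over the 66 members with a mean of at least 10 CPM, the log2 values of hMPDM and BMDM had a Pearson r of 0.75 and a Spearman rho of 0.75, while those of BMDM replicates 1 and 2 taken apart had 0.76 and 0.67. RAW and BMDM had 0.28 and 0.36. These are across genes, which are not independent replicates and share the libraries' scaling, the hMPDM LPS library stood at 10.7% of BMDM over the 15 genes named for it above, and the RAW libraries have the lowest depth, with a median of 254.5 counts per member unstimulated.

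Ndufa2 was the member taken upward in hMPDM, with 975 counts unstimulated and 413 after LPS in a smaller library, a scaled ratio of 1.54 (95% exact interval 1.37 to 1.73, counting error only). Ndufab1 was the member taken downward, with 239 and 34 counts and a ratio of 0.516 (0.349 to 0.742). Both moved the same way as in BMDM. Among the other members with at least 10 CPM in the higher library, Ndufa1, a small membrane subunit of complex I, had a ratio of 1.46, Cox6a2 1.45 and Ndufb6 1.32. At the other end, the core subunit Ndufs1 had 0.898, Cox5b 0.903 and Ndufb10 0.904. Below that limit, Atp5s had 0.489 (0.286 to 0.793) from 141 and 19 counts and Cox7c 0.484 (0.223 to 0.940) from 75 and 10.

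In RAW, Ndufs5 was taken upward with only 27 and 52 counts, a ratio of 1.58 whose interval of 0.972 to 2.61 includes 1. Ndufs3, a core subunit of the peripheral arm, was taken downward with 116 and 90 counts and a ratio of 0.635 (0.476 to 0.843). Above the same limit of 10 CPM, Ndufa7 had a ratio of 1.43, Atp5e 1.39 and Ndufa13 1.27. Ndufa12 had 0.753, the stalk subunit Atp5h 0.776 and Cox5b 0.797.

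**Figure D4:**
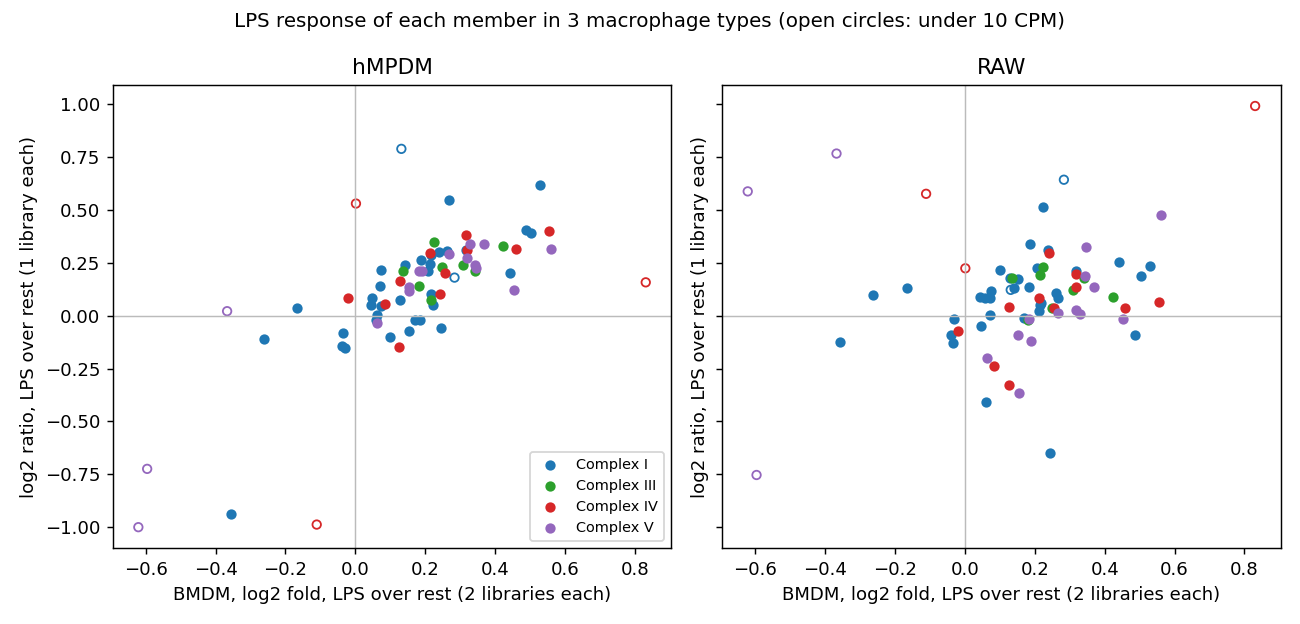
Log2 LPS response of each member in hMPDM (left) and RAW (right) against that in BMDM, coloured by complex, with TMM scaling; open circles are members with a mean under 10 CPM and the lines mark 0. The BMDM axis rests on 2 libraries per state and the vertical axes on 1, and Pearson's r over members of at least 10 CPM is 0.75 for hMPDM and 0.28 for RAW.

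The difference between the LPS responses of hMPDM and BMDM was not detectable for any member. edgeR called 0 of 74 in either direction, beside 3.96% of all genes higher and 3.89% lower, and DESeq2 called 0 as well, with no adjusted p for 10 members. At an unadjusted p under 0.05, edgeR had 2 members higher and 3 lower and DESeq2 none. With 10.7% of the BMDM LPS level of each gene subtracted from the hMPDM LPS library, an alternative added after the data were seen, edgeR again called 0. The median SE of these differences was 0.11 on the log2 scale, and the 2 sets of responses share no library.

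For 12 members the RAW response was called different from that of BMDM, relative to TMM scaling. Of the 74, edgeR called the RAW response lower for 11 and higher for 1, where 12.7% of all genes were called lower and 10% higher. The share of members called lower is near that of all genes, and the share called higher is below it. By library size, the median of all genes moved from 0.00 to 0.27 and the calls turned to 1 lower and 11 higher, while the members' median lay at -0.11 from the all-gene median with TMM and -0.12 by library size. DESeq2 called 2 lower and 0 higher, and with the coefficient of variation set at 10% none was called. No member passed a fold of 1.5 in either direction, which 2.7% of all genes passed upward and 5.12% downward. Of the 11, 6 were among the 16 members of complex V, namely Atp5h, Atp5mpl, Atp5a1, Atp5b, Atp5c1 and Atp5g3. The 1 higher, Atp5s, is also of complex V. Differences between complexes were not tested, and 0 members were called in the same direction under every setting.

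Ndufs3 had the lowest of these differences, -0.90 on the log2 scale (SE 0.23, adjusted p = 0.00387 in edgeR, 0.163 in DESeq2). It went from 20.9 and 23.2 to 29.3 and 24.6 in BMDM and from 30.3 to 19.2 in RAW. By library size BMDM stood at 22.3 and 24.9 CPM before and 24.3 and 20.4 CPM after, where the states overlap, and RAW at 37.2 and 22.1 CPM. Ndufs3 shares 17.9% of its 50-base stretches with other annotated transcripts, chiefly a processed pseudogene, and its RAW levels rest on 116 and 90 counts. Ndufb6 (-0.58), Atp5h (-0.52), Cox5a (-0.49) and Atp5mpl (-0.47), a small proteolipid of the synthase, followed. Cox5a stood at 143 unstimulated and 149 after LPS in RAW, already above its level of 122 and 116 in BMDM with LPS.

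Atp5s was the member with a higher response in RAW, with a difference of 1.22 (SE 0.41, adjusted p = 0.0299 in edgeR). It fell in BMDM, while RAW had 5.49 and then 8.34 from 21 and 39 counts. The call was lost without BMDM LPS replicate 2 and in DESeq2. In hMPDM, Atp5s stood at 8.47 unstimulated and 4.14 after LPS.

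Unstimulated RAW cells had higher levels of most members than unstimulated BMDM. edgeR called 44 of 74 higher and 7 lower, beside 27.1% of all genes higher and 31.3% lower, and the members' median log2 fold change was 0.30 against -0.06 for all genes. By library size these medians were 0.50 and 0.13, and 56 of 74 members lay above the all-gene median with TMM scaling, where 50% of genes lie. Past a fold of 1.5, 7 members were higher and 1 lower, beside 11.2% and 14.9% of all genes. DESeq2 called 28 higher and 4 lower, and with the coefficient of variation set at 10% 20 were higher. These 20 higher, and 4 lower, were called with the settings used here and under each of the 10 alternatives. The members took 1.06% of all counts in unstimulated RAW and 1.03% with LPS, and no more than 0.720% in any BMDM or hMPDM library. RAW has 1 library per state, which the test assumes to vary as the BMDM pairs do, and the neutrophil markers summed to 45.5 and 52.2 CPM in unstimulated BMDM and 4.81 CPM in RAW, whose part in these results was not tested.

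**Figure D5:**
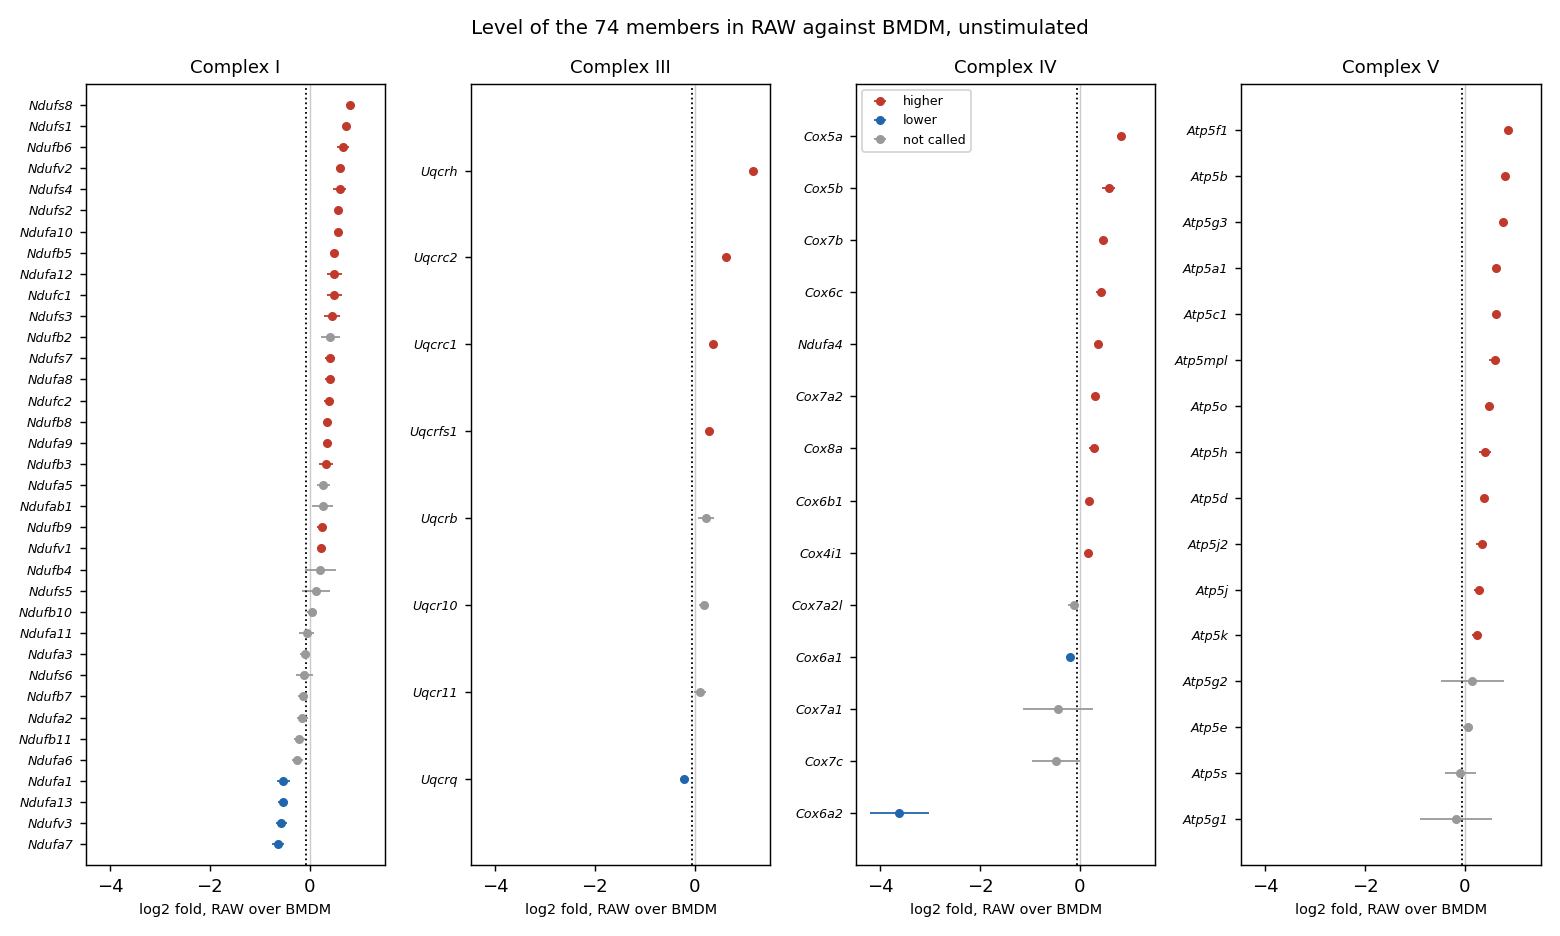
Log2 fold change of each member in unstimulated RAW (1 library) over unstimulated BMDM (2 libraries), by complex, with TMM scaling. Points are edgeR estimates, bars are 1 SE, colours give the call at an adjusted p of 0.05, the dotted line is the median of all genes at -0.06 and the grey line is 0; most points lie to the right and Cox6a2 stands alone at -3.61.

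All 7 core subunits of complex I were called higher, with a median log2 fold change of 0.57, and 12 of its 29 accessory subunits were called higher and 4 lower, with a median of 0.25. Of the 5 F1 subunits of the ATP synthase, 4 were higher, with a median of 0.63, and Atp5e at 0.07 was not called. Of its other 11 members 8 were higher and 0 lower, with a median of 0.34. Beside these, 27.1% of all genes were called higher, and the differences between the parts were not tested. As a share of the members' counts, complex V took 46.1% and 44.9% in RAW and 39.5% to 42.0% in the other libraries, and complex IV took 17.5% and 17.9% in RAW and 19.98% to 20.6% elsewhere.

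Uqcrh, the hinge protein that links cytochrome c1 to cytochrome c, had the highest fold change. It stood at 74.2 and 73.3 in BMDM and 166 in RAW, a log2 fold change of 1.17 (SE 0.07, adjusted p = 4.28e-14 in edgeR). Its RAW level was 170 after LPS, and hMPDM stood at 79.3, so only the RAW libraries were above 100. Atp5f1, the stator subunit b, followed at 0.86, Cox5a at 0.82, the iron-sulphur core subunit Ndufs8 at 0.81 and Atp5b at 0.80. Atp5b stood at 820 and 778 in BMDM and 1394 in RAW.

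The members lower in RAW were led by Cox6a2, the form of subunit 6a known from heart and skeletal muscle. It had 106 and 138 counts in unstimulated BMDM, 160 in hMPDM and 2 in RAW. The RAW over BMDM ratio was 0.092 by library size (95% exact interval 0.0111 to 0.336) and rests on those 2 counts. The fitted log2 fold change of -3.61 (adjusted p = 6.73e-06 in edgeR) depends on the prior count. The widespread form Cox6a1 was at 230 and 235 RPKM in BMDM and 234 RPKM in RAW, so Cox6a2 was 4.28% and 4.42% of the sum of both forms in BMDM, 6.85% in hMPDM and 0.415% in RAW. Cox6a2 overlaps the opposite-strand gene Itgad over 10.5% of its exon length.

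The other members lowest in RAW were accessory subunits of complex I. Ndufa7 stood at 54.1 and 56.6 in BMDM and 35.6 in RAW (log2 -0.64), Ndufv3 at 77.3 and 78.6 against 52.8 (log2 -0.56) and Ndufa13 at 83.7 and 82.7 against 57.8 (log2 -0.53). Ndufa13, also known as GRIM-19, overlaps Tssk6 on the opposite strand over 30.2% of its exons. Ndufa1 followed at -0.52, though DESeq2 did not call it. Among the other genes of the pathway, 12 of 46 assembly factors were higher in RAW and 2 lower, and 10 of 19 carriers were higher and 0 lower, beside 27.1% and 31.3% of all genes. Of 19 regulators, 6 were higher and 5 lower, with log2 values from -3.34 to 2.05 and a median of 0.09. The coactivator Ppargc1b was the highest at log2 2.05, and Pparg was lower at -2.84. Whether these genes bear on the members was not tested.

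Between unstimulated hMPDM and BMDM, members were called higher at about the share of all genes and lower less often. edgeR called 14 members higher in hMPDM and 2 lower, beside 19% of all genes higher and 19.2% lower, and none passed a fold of 1.5 in either direction, which 3.12% and 5.02% of all genes did. The members' median log2 fold change was 0.05, and 0.08 by library size. That scaling called 23 members higher and 1 lower, beside 21.4% and 17.9% of all genes. DESeq2 called none in either direction, with 3 higher and 0 lower at an unadjusted p under 0.05, and with the coefficient of variation set at 10% none was called.

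The highest of the 14 were low-count genes. Cox7c stood at 2.87 and 2.95 in BMDM and 4.51 in hMPDM (log2 0.63, SE 0.22, adjusted p = 0.0247 in edgeR), Cox6a2 at 6.33 and 6.68 against 9.61 (log2 0.56) and Atp5s at 5.91 and 5.76 against 8.47 (log2 0.54). Cox7c shares 22.1% of its 50-base stretches with other transcripts, and its call was lost without either unstimulated BMDM library. Atp5k, subunit e of the synthase, stood at 56.8 and 56.7 in BMDM and 71.5 in hMPDM (log2 0.33, adjusted p = 7.38e-05 in edgeR), and Ndufs3 at 20.9 and 23.2 against 27.7. The core subunit Ndufv1, which binds NADH and flavin, was lower, at 60.9 and 60.2 against 51.4 (log2 -0.24), as was Cox6a1 (log2 -0.13), whose call was lost without either unstimulated BMDM library.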

How the data were processed

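The values deposited by the authors are whole-number read counts for each gene, not normalized. Per the submitters' processing notes, the tools were cutadapt, STAR, SAMtools, bedtools and featureCounts on the mm10 build, and per the labels' protocols a stranded kit made the libraries. The sources used here state no versions and no strand setting for the counting. Of 10 value columns, 8 matched a sample and 2 were not used. Of 43346 identifiers, 42462 matched a symbol. Exon overlaps were computed from the exon coordinates deposited with the counts. Shared 50-base stretches were computed from all GENCODE M21 transcripts of a gene, which can hold more sequence than the exons counted. Of the 43346 genes, 33497 have the same span in both.

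Counts were tested with edgeR 4.0.16 in R 4.3.3 (filterByExpr, TMM, quasi-likelihood, 1 coefficient per group, all 8 libraries, 2 residual degrees of freedom). The fitted coefficient of variation was 2.27%, which comes from the BMDM pairs alone. An SE is the log2 fold change divided by the square root of F. glmTreat gave the test against a fold of 1.5. Ratios of single libraries use a prior count of 2, and their exact 95% intervals cover counting error only. A count of 0 allows 3 counts, or 0.155 to 0.963 CPM by library. The fit was also run on simulated counts, and no result of that run is given or used here. DESeq2 1.42.0, RLE and library-size scaling, no low-count filter, a coefficient of variation of 10%, a replicate block and leaving out each BMDM library were alternatives.

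Named were the 5 highest and 5 lowest called members of each tested comparison, the 4 highest and lowest of each untested one with at least 10 CPM in the higher library, paralogue pairs, members nearest the 1 CPM rule, the highest per kilobase and the leading genes of pathway lists. Any other named gene was chosen after its values were seen. The members and lists were chosen with earlier results of these data known.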

Additional observations from a re-analysis of the deposited data

Results flagged for a closer look

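The RAW response to LPS differed from that of BMDM, by the test of the difference itself in edgeR, for 12 members, 11 lower and 1 higher, beside 12.7% of all genes lower and 10% higher. By library size the calls turned to 1 lower and 11 higher, DESeq2 called 2 lower and 0 higher, and with the coefficient of variation set at 10% there were 0 and 0. The 6 with the largest differences are given here on the log2 scale, with TMM scaling. Atp5s had a difference of 1.22, Ndufs3 of -0.90, Ndufb6 of -0.58, Atp5h of -0.52, Cox5a of -0.49 and Atp5mpl of -0.47. Each rests on 1 RAW library per state.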

How the results depend on the processing

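Calls counted members under each alternative. For the BMDM LPS response, 46 were higher and 4 lower, against 17 and 0 in DESeq2, 11 and 1 with the coefficient of variation set at 10%, 3 and 47 by library size, and 37 to 44 and 2 to 4 with a library left out. For RAW against BMDM, 44 higher and 7 lower became 28 and 4 in DESeq2 and 20 higher at 10%. For hMPDM against BMDM, 14 and 2 became 0 and 0 in DESeq2 and at 10%, 23 and 1 by library size, 1 lower with no filter, and 10 to 20 and 1 to 2 with a library left out. For the RAW minus BMDM response, 1 higher and 11 lower became 0 and 2 in DESeq2, 0 and 0 at 10%, 11 and 1 by library size, and 0 to 1 and 10 to 12 with a library left out. For hMPDM minus BMDM, 0 higher became 0 to 1. The untested size rule's 1 higher member became 0 by library size in hMPDM and in RAW, and a minimum of 1 CPM gave 2 higher and 4 lower in hMPDM and 4 higher and 2 lower in RAW. Across genes, the differences between BMDM replicates 1 and 2 had a correlation of -0.03 between the states. With a fitted coefficient of variation of 2.27%, that value cannot show whether the replicate numbers pair the libraries. A replicate block gave 45 higher in BMDM with LPS and 1 lower in hMPDM. By library size, members with a BMDM LPS log2 change above 0 went from 63 to 11. Signs were followed gene by gene only for named members and paralogues, and turns are listed where either scaling made a call. The change turned to -0.0485 for Cox4i1, -0.24 for Cox5b, -0.15 for Cox6a1, -0.36 for Cox6a2 and -0.24 for Cox6b1. It turned to -0.0472 for Cox7a2, -0.28 for Cox8a, -0.12 for Ndufa4 and -0.15 for Ndufc2. Library size also turned Cox6a1 in RAW to 0.00925 and the Atp5g3 response difference to 0.0328. That scaling removes the TMM factors; for the other alternatives the cause was not tested. Depth limits RAW, where the lowest member had 2 counts.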
